A study of Mus musculus with 10 samples.

Results

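The optic nerve carries the axons of retinal ganglion cells to the brain. The crush data described here come from its cells labelled as microglia and macrophages. All cells of the 2 injured optic nerve libraries were compared with all cells of the 2 uninjured ones, 959 of the 1168 cells in the deposited table; the remaining 209 cells came from retina. Injured library 1 held 146 cells, injured library 3 held 682, uninjured library 2 held 103 and uninjured library 4 held 28. The mice were wildtype, of the strain given in the labels as 129S1/SvlmJ, and were 10 weeks old at collection. The injured animals had received an optic nerve crush at 8 weeks of age, 2 weeks before collection, and the uninjured animals had no treatment. The series held 10 samples in 4 groups, injured and uninjured optic nerve and injured and uninjured retina. How many animals were behind a library is not given in the labels, so p-values here measure the spread between libraries, which may be technical.

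Microglia are the resident macrophages of the central nervous system. In the healthy nerve they express a homeostatic program that includes the purine receptor P2ry12 and the surface protein Tmem119. When they meet myelin debris or dying cells, microglia are known to switch to a disease-associated program, in which the signalling adaptor Tyrobp and its partner receptor Trem2 sense lipids, Apoe and Lpl handle them, and cathepsins digest what was taken up. Border macrophages sit in the sheaths and around vessels and are marked by genes such as Mrc1 and F13a1.

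Expression was read in 2 ways. The tested level was the mean over the cells of a library of the natural log of 1 plus the UMIs (unique molecular identifiers, each standing for 1 captured mRNA molecule) per 10000 of the cell, and an effect is the injured minus the uninjured mean on that scale, with the limma standard error (SE). The CPM of a gene in a library is its summed UMIs per 1000000 summed UMIs of all genes there; folds below are ratios of the mean CPM of the 2 libraries on each side. These are 3' end counts, so CPM is not divided by gene length and levels are compared between groups and not between genes.

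Depth differed between libraries more than between groups. The median UMIs per cell were 1078 and 2060.5 in the injured libraries against 2048 and 1470 in the uninjured ones (exact two-sided permutation test, p = 1), and the median genes per cell were 495.5 and 895.5 against 1015 and 911.5 (exact permutation p = 0.333, the smallest that 2 against 2 libraries can give). Injured library 3 supplied 5234954 of the 5989123 nerve UMIs, and uninjured library 4 supplied 84121. Injured libraries 1 and 3 shared 2 cell barcodes.

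The label of the cells, microglia and macrophages, was checked against marker genes. The authors' deposited classes call every cell a macrophage and divide them only by the RNA-binding protein gene Rbpms, so finer classes were made from clusters. All 10 microglia markers had a UMI in each library, with summed CPM of 5714 and 6141 in the injured and 3552 and 7156 in the uninjured libraries. Clustering set apart oligodendrocyte-like and border macrophage-like cells, while endothelial-like cells were taken as those with a UMI of at least 5 endothelial markers, whatever their cluster. Oligodendrocyte-like cells, the myelin-forming glia, made up 10.3% and 6.89% of the injured libraries and 23.3% and 14.3% of the uninjured ones. Border macrophage-like cells were 6.16% and 4.40% against 42.7% and 3.57%, so that uninjured library 2 alone was rich in them. This class was mixed. In a finer clustering a separate cluster led by genes such as Tnip3, Ciita, Ccr2 and H2-Ab1 held 26 cells of injured library 3 and 13 of uninjured library 2. The border macrophage-like shares were then 5.48% and 0.733% against 32.0% and 3.57%. The coarser classes are the ones used below. Endothelial-like cells were 0% and 0.587% against 1.94% and 7.14%; the 0 of 146 cells allows a share of up to 2.05%. T and NK cell-like cells came to 1 cell in the 4 nerve libraries. The oligodendrocyte-like and endothelial-like shares were lower in both injured libraries (exact permutation p = 0.333 each). Counts and several of the values below are therefore also given without the oligodendrocyte-like, endothelial-like and T cell-like cells and the border macrophage-like cells. This left 122, 600, 33 and 21 cells in libraries 1, 3, 2 and 4, called the remaining myeloid cells. They made up 83.6%, 88.0%, 32.0% and 75% of their libraries. The 2 sides filled different clusters of this class. Cluster 4, with Egr3, P2ry12 and Tmem119 among its leading genes, held 18 and 12 of the uninjured cells but 2 and 0 of the injured ones. Cluster 6, led by genes such as Cst7 and Cxcl14, held 94 and 327 injured cells and 12 and 8 uninjured ones, and clusters 2 and 5 held most of the other injured cells. A change within cells and a change in which cells were captured therefore cannot be told apart in this class. In these cells the summed oligodendrocyte markers still stood at 5333 and 4458 CPM in the injured and 8299 and 10365 CPM in the uninjured libraries.

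At an adjusted p of 0.05, 51 of 3935 genes changed after crush (1.3%): 23 rose (0.584% of those tested) and 28 fell (0.712%), in limma with Benjamini-Hochberg adjustment. As the background for statements on overlap in CPM, 15.2% of all tested genes were higher in both injured libraries than in both uninjured ones, and 25.9% were lower. Of the 51 genes, 47 did not overlap in CPM. The median effect over all tested genes was −0.03. limma on log2 CPM of the summed UMIs called 10 genes, 3 higher and 7 lower, and limma on cells thinned to 1000 UMIs called 5, 3 higher and 2 lower. Without injured library 3, 10 genes were called, 5 in each direction. Without the oligodendrocyte-like, endothelial-like and T cell-like cells 14 genes rose (0.356%) and 23 fell (0.584%), 0.94% in all. In the remaining myeloid cells 40 genes rose (1.02%) and 50 fell (1.27%), 2.29% in all, and 32 of the 51 were called again.

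Genes of the disease-associated program rose after crush. Of its 26 tested genes, 11 rose and none fell, with a median effect of 0.80. The filter on detection bears on this count: Apoc1, Cst7, Gpnmb, Igf1, Itgax, Lgals3, Lpl and Spp1 had a UMI in under 10% of uninjured cells and were tested only because of the injured libraries. Of the other 18 genes 6 rose, with a median of 0.87, and of the 3185 genes detected in at least 10% of cells on both sides 16 rose, with a median of −0.03. The count depended on the libraries: 17 rose without injured library 1, 3 without injured library 3 (Apoc1, Apoe and Spp1), 5 without uninjured library 2 and 4 without uninjured library 4. In the remaining myeloid cells 14 of the 26 rose, with a median of 0.79. Apoc1, Cst7, Igf1, Itgax, Lgals3, Lpl and Spp1, tested only because of the injured libraries, were among these 14. The summed CPM of the list was 103246 and 195823 in the injured libraries and 51555 and 41642 in the uninjured ones.

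**Figure D1:**
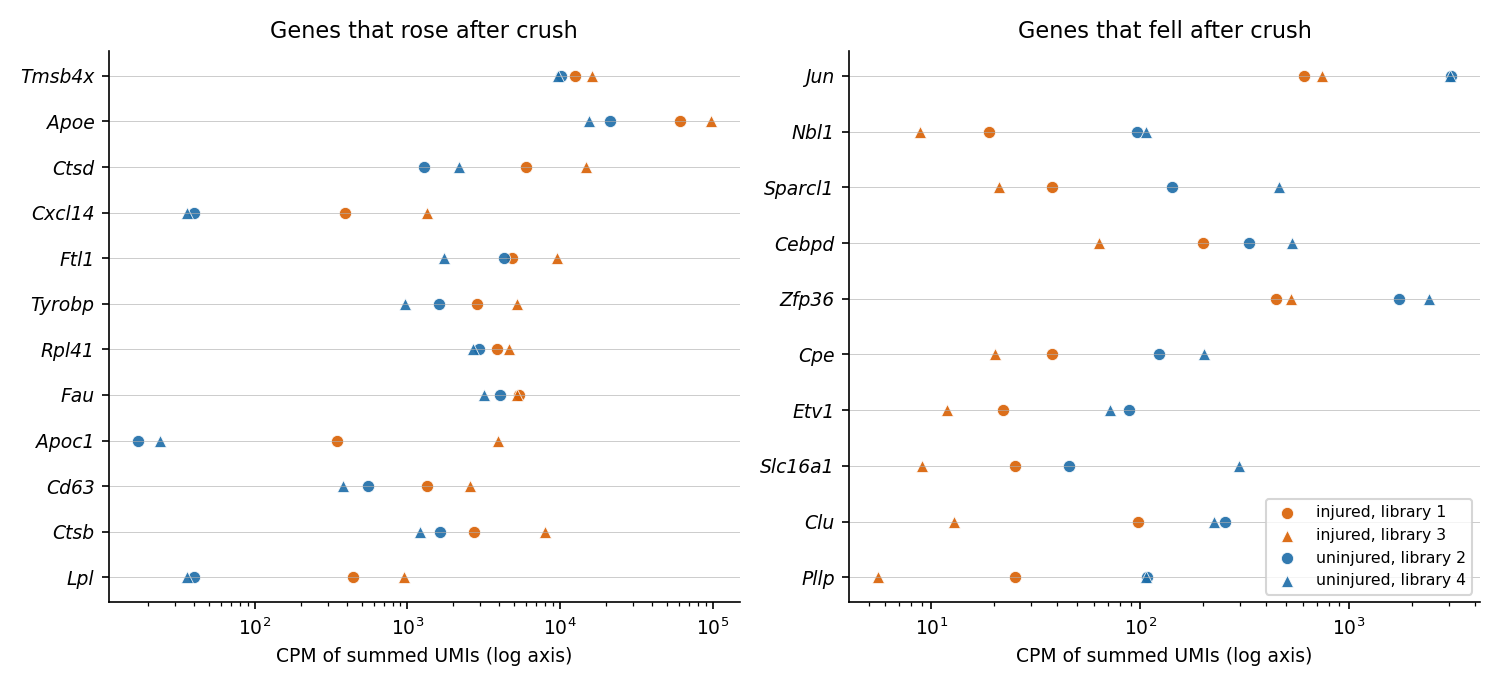
CPM per library (log axis) of the 12 genes that rose and 10 of those that fell by the naming rule, with 1 point per library in the 2 injured and 2 uninjured optic nerve libraries. The injured points lie above the uninjured ones in the left panel and below them in the right panel, which the naming rule required, and the 2 injured points are furthest apart for Apoc1, at 345 and 3910 CPM.

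Apoe, the lipid-carrying apolipoprotein that marks this program (chromosome 7, 19696109-19699188, minus strand, GRCm38), stood at 61114 and 97546 CPM in the injured and 21239 and 15418 CPM in the uninjured libraries. The groups did not overlap, and the means differed 4.33-fold. Its effect was 3.09 ± 0.39 (SE; limma adjusted p = 0.00071). A UMI of Apoe was found in 97.9% and 99.9% of injured cells and in 86.4% and 57.1% of uninjured cells, and in 92.2% of oligodendrocyte-like cells, so shares of cells say little for this gene. Apoe kept its call without each nerve library in turn, in DESeq2 on summed UMIs (adjusted p = 0.0086) and after thinning (0.0045). It lost it in edgeR on 8 libraries (adjusted p = 0.063), in limma on log2 CPM (0.25), with robust variance estimation (0.20), with no filter on low values (0.091) and in edgeR without non-myeloid cells (0.10). Among the remaining myeloid cells Apoe stood at 73188 and 102887 CPM against 5579 and 20053, with an effect of 4.19 ± 0.24 (adjusted p = 3.5e-10).

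Apoc1, a small apolipoprotein whose gene lies next to Apoe (chromosome 7, 19689481-19692660, minus strand), stood at 345 and 3910 CPM after crush against 17.1 and 23.8 CPM. Injured library 3 was about an order of magnitude above injured library 1, and both were above the uninjured libraries. The effect was 1.5 ± 0.29 (limma adjusted p = 0.013) and 0.72 without injured library 3 (adjusted p = 0.005). It missed the threshold without uninjured library 2 (adjusted p = 0.10) or 4 (0.065). A UMI was found in 30.1% and 72.4% of injured cells and in 2.91% and 3.57% of uninjured ones, against 16.7% of oligodendrocyte-like cells, whose median was 1549 UMIs. Lpl, lipoprotein lipase, which frees fatty acids from lipoproteins, stood at 442 and 952 CPM against 39.8 and 35.7, an 18.5-fold difference with an effect of 0.80 ± 0.17 (adjusted p = 0.024). Without injured library 3 the fold was 11.7 and the effect 0.42 (adjusted p = 0.27), and the call was also lost without uninjured library 2 (0.12) or 4 (0.11).

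Ctsd, the aspartic protease cathepsin D of the lysosome (chromosome 7, 142375911-142388038, minus strand; the gene model Gm49369 overlaps it), stood at 5943 and 14797 CPM against 1275 and 2187 CPM. The groups did not overlap, the fold was 5.99 and the effect 1.90 ± 0.29 (limma adjusted p = 0.0043). It was 1.58 without injured library 3, where it was no longer called (adjusted p = 0.059). Ctsb, cathepsin B, a cysteine protease, rose by 1.40 ± 0.30 (adjusted p = 0.024), from 1639 and 1201 CPM to 2736 and 7926. Cd63, a tetraspanin of late endosomes, was at 1346 and 2557 CPM against 555 and 380 (effect 1.36 ± 0.29, adjusted p = 0.023). Both cathepsins and Cd63 were thus higher in each injured library than in either uninjured one. Ctsb and Cd63 lost their call without injured library 3 (effects 0.94 and 1.08, adjusted p = 0.48 and 0.28), and without either uninjured library (adjusted p from 0.071 to 0.11).

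Spp1, which encodes the secreted matrix protein osteopontin (chromosome 5, 104435118-104441050, plus strand; Gm42793 overlaps it), differed widely between the injured libraries. It stood at 866 and 13887 CPM after crush against 37.0 and 95.1 CPM. The effect of 2.07 ± 0.46 (limma adjusted p = 0.026) was 0.81 without injured library 3 (adjusted p = 0.018), and it missed the threshold when either uninjured library was left out (adjusted p = 0.13 and 0.16).

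Among the surface and signalling members, Tyrobp, the adaptor through which Trem2 signals, rose by 1.52 ± 0.27 (limma adjusted p = 0.0068), with 2871 and 5235 CPM against 1602 and 963. Trem2 itself stood at 1387 and 2338 CPM against 527 and 559, with an effect of 0.92 ± 0.29 that did not pass (adjusted p = 0.16). Itgax, which encodes the integrin CD11c, stood at 141 and 184 CPM against 5.69 and 0 CPM. Its 2 injured libraries were close to each other, and its effect was 0.42 ± 0.07 (adjusted p = 0.0068). The uninjured libraries held so few UMIs of Itgax that the ratio of the pooled UMIs of the 2 sides, 39.5, has a counting interval from 10.9 to 327. Cst7, the cysteine protease inhibitor cystatin F, stood at 65.9 and 423 CPM against 5.69 and 0 CPM (effect 0.61 ± 0.13, adjusted p = 0.026). Cd52, a glycoprotein of the leukocyte surface, was at 1073 and 1527 CPM against 324 and 404 (effect 1.06 ± 0.24, adjusted p = 0.032). Without injured library 3 none of these 4 called genes passed (adjusted p = 0.13 for Tyrobp, 0.059 for Itgax, 0.10 for Cst7 and 0.43 for Cd52). Cst7 and Cd52 also lost their call without uninjured library 2 (0.13 and 0.18), and Itgax and Cst7 without uninjured library 4 (0.051 and 0.15).

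Gpnmb, a transmembrane glycoprotein of lipid-laden phagocytes, did not pass in limma (effect 0.62 ± 0.19, adjusted p = 0.14) although no UMI was found in either uninjured library. It stood at 59.6 and 1362 CPM after crush, and a UMI was found in 5.48% and 48.2% of the injured cells. With the UMIs of each side pooled and 3 UMIs over both uninjured libraries as the limit of a count of 0, Gpnmb was at least 187-fold higher after crush. That bound rests on injured library 3; from injured library 1 alone it was at least 8.65-fold. edgeR, run on summed UMIs of the 8 libraries, called 12 members of the disease-associated list higher and none lower, Gpnmb and Trem2 among them. In all, 28 genes were called higher (0.712%). Of the 12, Apoc1, Cst7, Gpnmb, Itgax, Lgals3, Lpl and Spp1 were tested only because of the injured libraries.

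The lysosomal list, 29 genes tested, had 5 that rose and none that fell, with a median of 0.33; of these 29, Glb1 and Neu1 passed the filter on detection only through the injured libraries. Besides Ctsd, Ctsb and Cd63 these were the cathepsins Ctsz and Ctss. Ctsz stood at 2501 and 3901 CPM against 934 and 1070 (effect 1.28 ± 0.28, limma adjusted p = 0.025), and Ctss at 5685 and 7072 against 2120 and 3483 (effect 1.3 ± 0.29, adjusted p = 0.026). In the remaining myeloid cells 8 of the 29 rose, now also Lamp1, a glycoprotein of the lysosomal membrane (0.97 ± 0.24, adjusted p = 0.04), the phagosomal marker Cd68 and the protease Ctsl. Leaving out libraries gave 8 (without injured library 1), 0 (without injured library 3), 1 (without uninjured library 2) and 3 (without uninjured library 4).

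**Figure D2:**
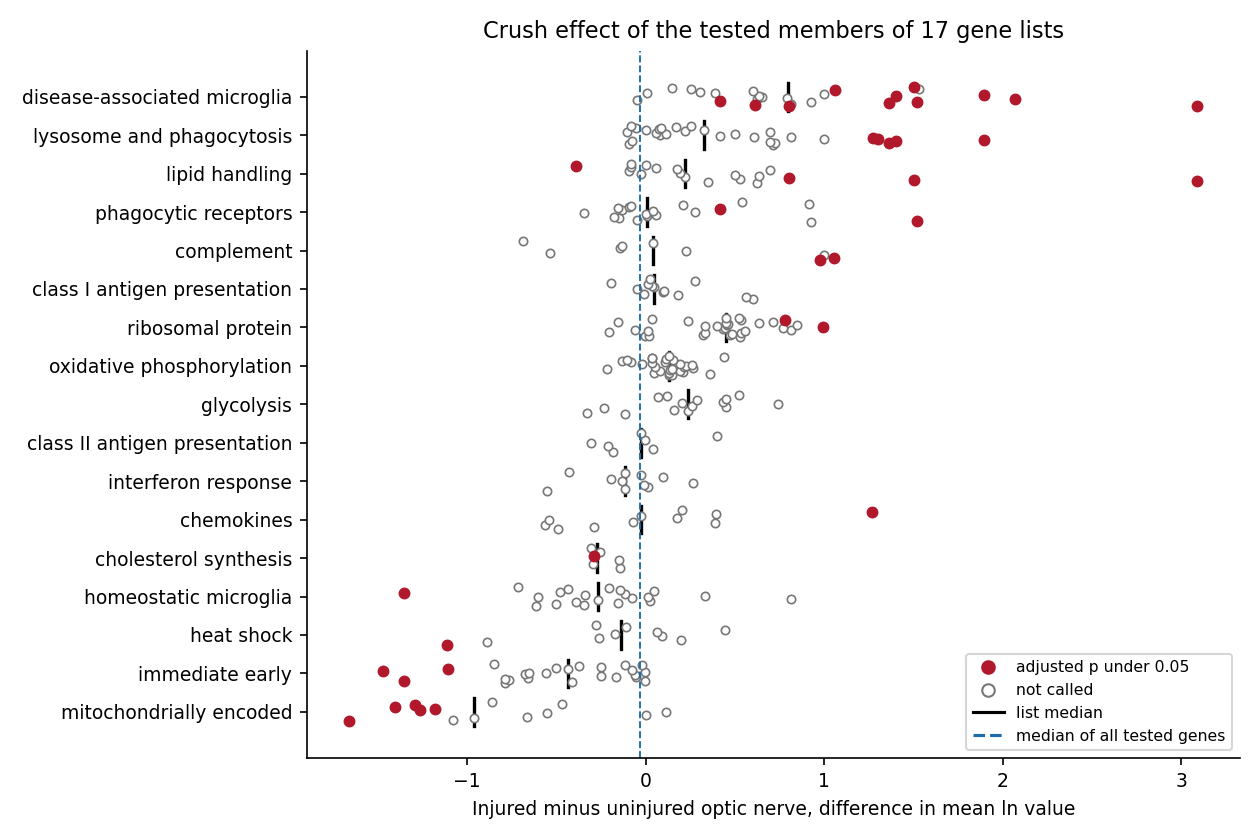
Crush effect in optic nerve (injured minus uninjured, mean ln scale) of each tested gene in 17 gene lists, 1 point per gene, with called genes marked and the list medians drawn as black lines; the dashed line is the median of all tested genes. The disease-associated list has a median of 0.80, with 8 of its 26 genes tested only because of their detection in the injured libraries, and the 25 immediate early genes have a median of −0.43.

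Promoters of 2 of these genes and of Lamp1 are shown because they hold letter motifs of factors known to act in lysosomal and myeloid genes: CACGTG, the core bound by the TFEB, TFE3 and MITF family, TGACTCA or TGAGTCA, the AP-1 site, and GGAAGT or ACTTCC, a core of ETS factors such as PU.1. The RefSeq promoter table (GRCm38.p6, 250 bases before to 50 after the start site, both strands searched) held 16 of the 23 genes that rose and 16 of the 28 that fell. Below are the 250 bases before the start site, 5′ to 3′ on the strand of the gene, with matches in capitals.
Ctsd, chr7:142387828-142388077, minus strand: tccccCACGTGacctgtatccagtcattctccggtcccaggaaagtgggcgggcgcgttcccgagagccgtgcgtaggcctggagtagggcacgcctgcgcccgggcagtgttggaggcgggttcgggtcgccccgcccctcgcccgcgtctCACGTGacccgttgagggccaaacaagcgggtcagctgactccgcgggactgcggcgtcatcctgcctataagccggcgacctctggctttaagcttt
Lamp1, chr8:13158911-13159160, plus strand: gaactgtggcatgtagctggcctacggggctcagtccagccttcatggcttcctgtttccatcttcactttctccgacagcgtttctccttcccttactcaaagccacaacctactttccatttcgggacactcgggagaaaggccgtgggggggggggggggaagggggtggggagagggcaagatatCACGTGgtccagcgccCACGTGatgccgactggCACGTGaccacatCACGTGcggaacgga
Itgax, chr7:128129300-128129549, plus strand: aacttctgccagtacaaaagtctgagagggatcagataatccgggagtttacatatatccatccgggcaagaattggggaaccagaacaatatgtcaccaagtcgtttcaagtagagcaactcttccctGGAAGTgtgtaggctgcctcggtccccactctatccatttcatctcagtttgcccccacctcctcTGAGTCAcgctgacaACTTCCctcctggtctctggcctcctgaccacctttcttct

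In the Ctsd promoter CACGTG begins 245 and 98 bases before the start site. Lamp1 holds it 4 times, beginning 61, 45, 28 and 15 bases before the start. Itgax holds TGAGTCA 56 bases before the start, between GGAAGT at 121 and ACTTCC at 41 bases. CACGTG occurred in 8 of the 26 lysosomal list genes with a promoter in the table (30.8%), against 13.3% of the 3204 tested genes with one and 8.09% of all 27025. It also occurred in 6 of the 21 immediate early list genes with a promoter (28.6%), a list of which only falls were called. In the disease-associated list it occurred in 2 of 20 such genes (10%). Among the 16 genes that rose it occurred only in Ctsd (6.25%), the AP-1 letters occurred only in Itgax (6.25%, against 4.40% of tested genes), and the ETS letters occurred in 8 (50%, against 34.8%). Of the 16 that fell, 4 held the ETS letters (25%). These are letter matches in a fixed window.

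Outside the disease-associated and lysosomal lists, the gene that rose with the smallest adjusted p was Tmsb4x, the actin-binding peptide thymosin beta 4. It stood at 12453 and 16263 CPM after crush against 10213 and 9688, a 1.44-fold difference (effect 0.93 ± 0.10, limma adjusted p = 0.00011). In CPM the injured libraries lay further from each other than the lower of them lay from the uninjured libraries. The call was lost on summed UMIs (adjusted p = 0.53 in limma on log2 CPM, 0.37 in edgeR and 0.75 in DESeq2) and after thinning (0.19). Cxcl14, a chemokine, was the only 1 of 11 tested chemokine genes to rise. It passed the filter on detection only through the injured libraries. Of the 8 chemokine genes detected in at least 10% of cells on both sides, 0 rose. Cxcl14 stood at 389 and 1344 CPM against 39.8 and 35.7, a 23-fold difference (effect 1.27 ± 0.20, limma adjusted p = 0.0043). Without injured library 3 the fold was 10.3 and the effect 0.80 (adjusted p = 0.0072). A UMI of Cxcl14 was found in 36.3% and 70.7% of injured cells and in 7.77% and 3.57% of uninjured cells, against 18.9% of oligodendrocyte-like cells. The inflammatory chemokine Ccl4 had an effect of −0.57 in all cells (adjusted p = 0.56) and fell in the remaining myeloid cells (−1.24 ± 0.33, adjusted p = 0.048).

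Of 9 tested complement genes, the first-component chains C1qa and C1qb rose. C1qa stood at 6030 and 8064 CPM against 5411 and 3638 (effect 0.98 ± 0.21, limma adjusted p = 0.024), and C1qb at 5958 and 7881 against 5018 and 3222 (1.06 ± 0.23, adjusted p = 0.025). In both genes the lower injured library was only slightly above uninjured library 2. C1qa lost its call without any 1 of the 4 libraries (adjusted p from 0.051 to 0.24), and C1qb without injured library 3 (0.29) or uninjured library 2 (0.13). In the same list C1qc, the third chain, rose in the remaining myeloid cells.

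Ftl1, the ferritin light chain of iron storage, was the only 1 of 8 iron-handling genes called. Its 4863 and 9522 CPM against 4306 and 1747 CPM gave an effect of 1.57 ± 0.26 (limma adjusted p = 0.0047). Ftl1 overlaps 2 other gene models, Gm10252 and Gm22133, and has processed pseudogenes, so its count may be split or shared. Dcstamp, a membrane protein needed for the fusion of osteoclasts and macrophages, stood at 141 and 165 CPM against 8.54 and 11.9 (effect 0.31 ± 0.07, adjusted p = 0.037). Of 32 ribosomal protein genes, Rpl41 and Rps24 rose in limma, and edgeR called none. Rpl41 stood at 3847 and 4610 CPM against 2946 and 2710 (effect 0.99 ± 0.18, adjusted p = 0.0087). Rps24 overlapped between the groups in CPM. The elongation factor Eef1a1 (0.72 ± 0.15, adjusted p = 0.024) and the ribosomal fusion gene Fau (0.84 ± 0.16, adjusted p = 0.012) rose as well. Without injured library 3 none of Ftl1, Dcstamp, Rpl41, Rps24, Eef1a1 and Fau was called (adjusted p from 0.10 to 0.48). Dcstamp also lost its call without uninjured library 2 or 4 (0.15 and 0.13), Rps24 without injured library 1 (0.37) or uninjured library 4 (0.13), Eef1a1 without injured library 1 (0.15) or uninjured library 2 (0.068), and Fau without injured library 1 (0.095).

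The genes that fell included immediate early genes, which are transcribed soon after a cell is stimulated. Of 25 tested, Jun, Zfp36 and Klf2 fell, none rose, and the median effect was −0.43. Jun, a subunit of AP-1 (chromosome 4, 95049034-95052222, minus strand; the antisense gene Junos overlaps it), stood at 606 and 741 CPM after crush against 3083 and 3055. Replicates on each side were close, the fold was 4.56, and the effect was −1.35 ± 0.22 (limma adjusted p = 0.0043). Zfp36, which promotes decay of cytokine mRNAs (chromosome 7, 28376784-28380253, minus strand; Gm44710 overlaps it), stood at 446 and 527 CPM against 1739 and 2413 (effect −1.47 ± 0.26, adjusted p = 0.0068). Jun and Zfp36 were also lower after crush without each of the 4 libraries in turn. Both were called in limma on log2 CPM, in edgeR on 8 libraries and in DESeq2. Neither was called after thinning to 1000 UMIs or with no filter on low values. In edgeR on the 4 nerve libraries both missed the threshold (adjusted p = 0.094 for Jun and 0.11 for Zfp36). Jun also missed it in limma on the 4 nerve libraries (adjusted p = 0.051). Klf2, a zinc-finger factor of quiescent cells, stood at 185 and 315 CPM against 1557 and 2175 (−1.10 ± 0.24, adjusted p = 0.024), and it lost its call when any 1 library was left out (adjusted p from 0.058 to 0.17).

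In the remaining myeloid cells the fall of Jun was −1.49 ± 0.24 and that of Zfp36 −1.78 ± 0.25, and Egr1, Socs3 and Jund also fell. Immediate early genes are known to be induced by cell dissociation as well as by signals in the tissue; no measure of dissociation is in the files, and its part was not tested. Hspa1a, an inducible heat shock chaperone, fell from 2636 and 1486 CPM to 43.9 and 84.8 (effect −1.11 ± 0.24, limma adjusted p = 0.025), the only one of 10 heat shock genes called. The call was lost without injured library 1 (adjusted p = 0.078) or 3 (0.25) or uninjured library 2 (0.15). Its near-identical neighbour Hspa1b stood at 3.14 and 21.4 CPM after crush against 1526 and 939, and reads of the pair cannot be assigned with certainty. Hspa1a was not called in the remaining myeloid cells (−0.68 ± 0.25, limma adjusted p = 0.18). Hspa1a, Hspa1b and Hsph1 passed the filter on detection only through the uninjured libraries. None of the 7 heat shock genes detected in at least 10% of cells on both sides was called, and their median effect was 0.064.

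Several genes that fell are known from other glia. Nbl1, Sparcl1, Cpe, Slc16a1, Clu and the myelin proteolipid Pllp fell, and their effects in the remaining myeloid cells lay between −0.15 and −0.06, none called. All of them passed the filter on detection only through the uninjured libraries, the side on which they were higher. Of the 28 genes that fell among all tested genes, 14 passed this filter on both sides. Of the oligodendrocyte marker list the membrane proteins Mal (235 and 34.4 CPM against 806 and 737; effect −0.52 ± 0.09, adjusted p = 0.0084) and Gpm6b (198 and 26.2 against 629 and 357; −0.64 ± 0.11, adjusted p = 0.0073) fell. Without injured library 3 none of these 8 genes was called (adjusted p from 0.094 to 0.44), and Pllp also lost its call without injured library 1 (0.055). Of them only Mal was still called in the remaining myeloid cells, at −0.39 (adjusted p = 0.011), where Mbp of the same list also fell. These falls move with the lower share of oligodendrocyte-like cells and with the summed oligodendrocyte markers, which were 9425 and 4957 CPM in the injured and 18416 and 12958 CPM in the uninjured libraries. The 14 astrocyte markers, Clu among them, summed to 907 and 305 CPM against 1699 and 2235. In summed cells of a library, fewer cells of a type and less RNA of that type per cell cannot be told apart.

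**Figure D3:**
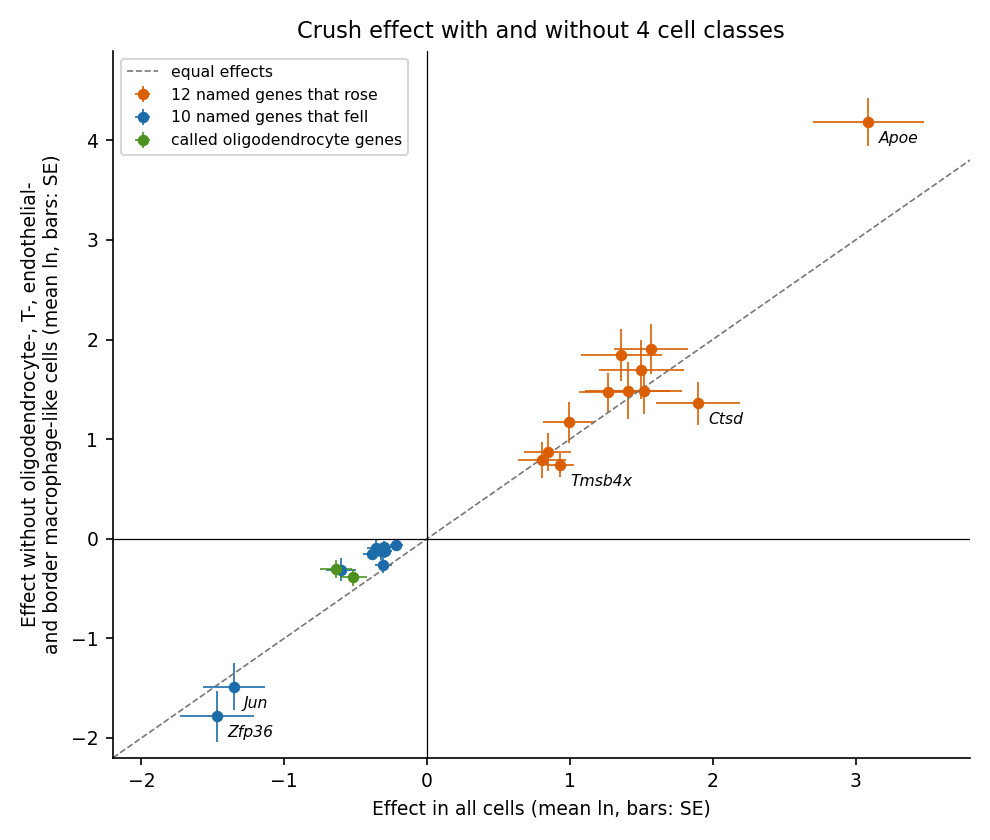
Crush effect (mean ln scale, bars are the limma SE) in all optic nerve cells (horizontal) against the effect without the oligodendrocyte-like, endothelial-like, T cell-like and border macrophage-like cells (vertical), for the 12 named genes that rose, 10 of those that fell and the called oligodendrocyte genes; the dashed line marks equal effects. Apoe moves from 3.09 to 4.19 and Jun from −1.35 to −1.49.

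Of 19 tested lipid-handling genes, Apoe, Apoc1 and Lpl rose. The cholesterol exporter Abca1 rose in the remaining myeloid cells, with 302 and 564 CPM against 0 and 24.2 (effect 0.88 ± 0.17, adjusted p = 0.0057). Of 6 tested genes of cholesterol synthesis, all 6 were lower in both injured libraries and Msmo1 passed in limma, at 25.1 and 20.6 CPM against 134 and 107 (−0.29 ± 0.07, adjusted p = 0.049). It kept its call only without uninjured library 4. Msmo1 and 4 other genes of these 6 passed the filter on detection only through the uninjured libraries. edgeR called 4 of the 6 lower, Hmgcs1, Msmo1, Insig1 and Srebf2, where 27 of all genes were called lower (0.686%). None of the 6 was called in the remaining myeloid cells.

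In the homeostatic program the number of called genes depended on which cells were kept. Over all nerve cells, 1 of its 21 tested genes fell, Jun, and the median effect was −0.27. P2ry12, the ADP receptor that steers microglial processes, stood at 176 and 46.4 CPM against 287 and 511 (effect −0.62 ± 0.23, limma adjusted p = 0.27). Among the remaining myeloid cells, whose uninjured part lay mostly in the cluster led by P2ry12 and Tmem119, it stood at 224 and 47.2 CPM against 1056 and 1041, and fell by 1.16 ± 0.22 on the ln scale (adjusted p = 0.0057). Tmem119 likewise stood at 190 and 64.3 CPM against 621 and 775 there (−0.99 ± 0.21, adjusted p = 0.013). Selplg, the selectin ligand PSGL-1 (−1.32 ± 0.24, adjusted p = 0.0028), Tgfbr1, a receptor of TGF-beta, which maintains microglial identity (−0.98 ± 0.20, adjusted p = 0.0078), and the purine receptor P2ry13 (−0.58 ± 0.15, adjusted p = 0.046) fell in these cells as well, so that 6 of 21 fell with a median of −0.62.

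Cx3cr1, the fractalkine receptor of microglia, did not pass and overlapped between the groups in all cells (537 and 641 CPM against 538 and 701). Its levels in the remaining myeloid cells were 703 and 664 CPM against 1665 and 1405, with an effect of −0.64 ± 0.26 (limma adjusted p = 0.21). The uninjured side of these values is 33 and 21 cells.

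List genes were also counted within single cells at a matched depth. Each cell was thinned to 1000 UMIs, which left 79 of 146 and 481 of 682 injured cells and 84 of 103 and 19 of 28 uninjured cells. The median cell then held a UMI of 11 and 16 of the 26 disease-associated genes in the injured libraries and of 7 and 7 in the uninjured ones. The lower to upper quartiles of the cells spanned 8 to 14 and 13 to 18 genes after crush and 5 to 9 and 5 to 8.5 without it. For the 26 immediate early genes the medians were 7 and 5 against 11 and 11. Lysosomal genes, 33 in all, gave medians of 12 and 16 against 8 and 12, which touch at 12. The 24 homeostatic genes gave 6 and 6 against 6 and 10 in all cells; among the remaining myeloid cells they gave 7 and 6 against 11 and 13.

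**Figure D4:**
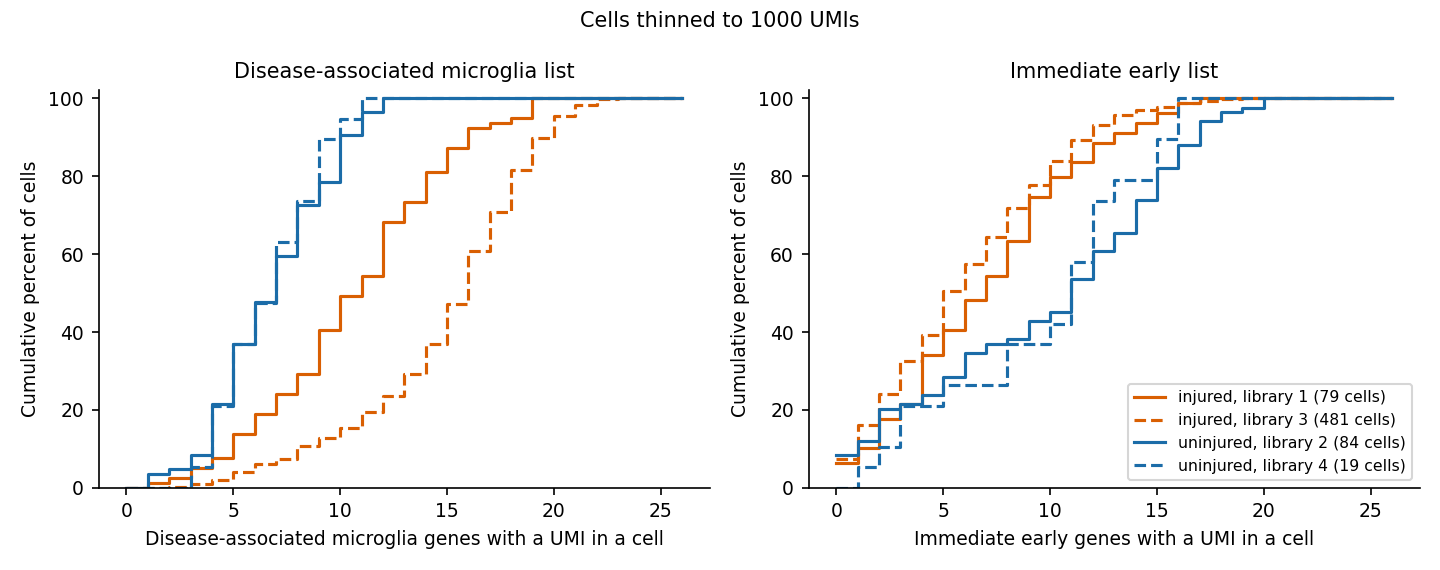
Cumulative percent of cells (vertical) with up to a given number of list genes seen (horizontal) after thinning each cell to 1000 UMIs, for the disease-associated (left) and immediate early (right) lists, 1 line per optic nerve library with its number of cells. The disease-associated lines of the injured libraries lie to the right, with medians of 11 and 16 genes against 7 and 7, and the immediate early lines lie to the left, with medians of 7 and 5 against 11 and 11.

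Mitochondrially encoded transcripts and Malat1, a nuclear RNA, are used as signs of RNA quality. Of 13 mitochondrially encoded genes, 5 fell in limma, mt-Nd1, mt-Co1, mt-Co2, mt-Co3 and mt-Atp6, while edgeR on summed UMIs called none. The median effect of the list was −0.96. It was −0.75 without injured library 3 and −0.34 without uninjured library 2. In CPM 2 of the 13 were lower in both injured libraries and 2 were higher. Their summed CPM overlapped, at 53549 and 29773 after crush against 74351 and 38350. Malat1 stood at 25656 and 11481 CPM after crush against 35883 and 34153 (effect −1.68 ± 0.37, limma adjusted p = 0.026; edgeR adjusted p = 0.37). It was called only without injured library 3 when 1 library was left out. Malat1 and 7 mitochondrially encoded genes fell in limma in the remaining myeloid cells. Their part in the other changes was not tested.

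Several programs had no called gene. No gene passed in limma among 7 tested for class II and 13 for class I antigen presentation, 11 interferon response genes, 13 cytokines and growth factors, 13 genes of endoplasmic reticulum stress, 29 of oxidative phosphorylation, 15 of glycolysis and 5 of proliferation. Their median effects in limma lay between −0.12 and 0.24. In CPM, 6 of the 7 class II genes were lower in both injured libraries, against 25.9% of all tested genes. Their edgeR median was −0.89, with none called. The class II list summed to 7050 and 5297 CPM against 14693 and 7953. Without uninjured library 2 its median limma effect was 0.13. Of the 15 glycolysis genes 8 were higher in both injured libraries, against 15.2% of all tested genes, with none called in edgeR. In the remaining myeloid cells, 33 and 21 of them uninjured, the growth factor Igf1 rose (0.83 ± 0.16, limma adjusted p = 0.0073). It stood there at 298 and 589 CPM against 12.4 and 0. Igf1 passed the filter on detection only through the injured libraries. Of the 11 genes of its list detected on both sides, 0 rose in all cells. The oxygen-responsive factor Hif1a of the glycolysis list rose in the remaining myeloid cells as well (0.68 ± 0.17, limma adjusted p = 0.04). Lyz2, the macrophage lysozyme, also rose there, at 1998 and 15864 CPM against 2634 and 291, with injured library 1 below uninjured library 2 in CPM (effect 2.24 ± 0.39, adjusted p = 0.0022).

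The crush effect was also compared with that in retina, in the same fit. Of 3859 genes with a UMI in each of the 4 groups, 290 differed in their response between the tissues (7.51%): 101 responded higher in nerve than in retina (2.62%) and 189 lower (4.9%), by the limma interaction term. After thinning to 1000 UMIs the count was 31, with 26 higher and 5 lower in nerve, and without the oligodendrocyte-like, endothelial-like and T cell-like cells, which left 87 of 109 and 33 of 57 injured retina cells, it was 153. Each injured retina library pools 2 samples, and retina values were deposited as counts and nerve values as ln values. The median injured retina cell of 1 library held 12989 UMIs. The cluster of T and NK cell-like cells held 22 of 109 and 24 of 57 injured retina cells. It held 0 of 31 and 0 of 12 uninjured retina cells. Tissue, cell makeup and processing therefore cannot be told apart in this comparison. The differences below were taken with the T and NK cell-like cells kept. The lysosomal protease Ctsd, called higher after crush in nerve, had an effect of −1.53 in retina, where it stood at 2374 and 2133 CPM after crush against 4517 and 5085; the difference was 3.43 ± 0.41 (adjusted p = 0.00017). The difference was 2.48 ± 0.30 for C1qa, 2.61 ± 0.33 for C1qb, 2.76 ± 0.38 for Tyrobp, 2.68 ± 0.36 for Ftl1 and 1.53 ± 0.14 for Tmsb4x (adjusted p from 6e-06 to 0.00058). Each of these 6 genes had an effect above 0 in nerve and below 0 in retina.

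In the other direction, Hspa1b and Hspa1a stood out. Hspa1a was at 7052 and 6739 CPM in injured retina against 1562 and 1073 in uninjured retina, so that its effect was 2.10 there and −1.11 in nerve (difference −3.22 ± 0.34, limma adjusted p = 5e-05). The other genes with the smallest adjusted p in that direction, Rpl17, Rps15, Arid5b and Tnrc6b, had effects of 0.01, −0.16, −0.10 and −0.36 in nerve, none called. Rps15, a ribosomal protein gene, stood at 2416 and 1981 CPM in injured and 203 and 141 CPM in uninjured retina; whether the retina libraries were counted with the same gene models is not given in the sources used here. Jun and Zfp36 had effects below 0 in both tissues, −1.53 and −1.68 in retina, and differences of 0.17 ± 0.31 and 0.21 ± 0.37 that did not pass (adjusted p = 0.77 each). For Apoe the effect was 2.03 in retina and the difference 1.06 ± 0.55 (adjusted p = 0.23).

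**Figure D5:**
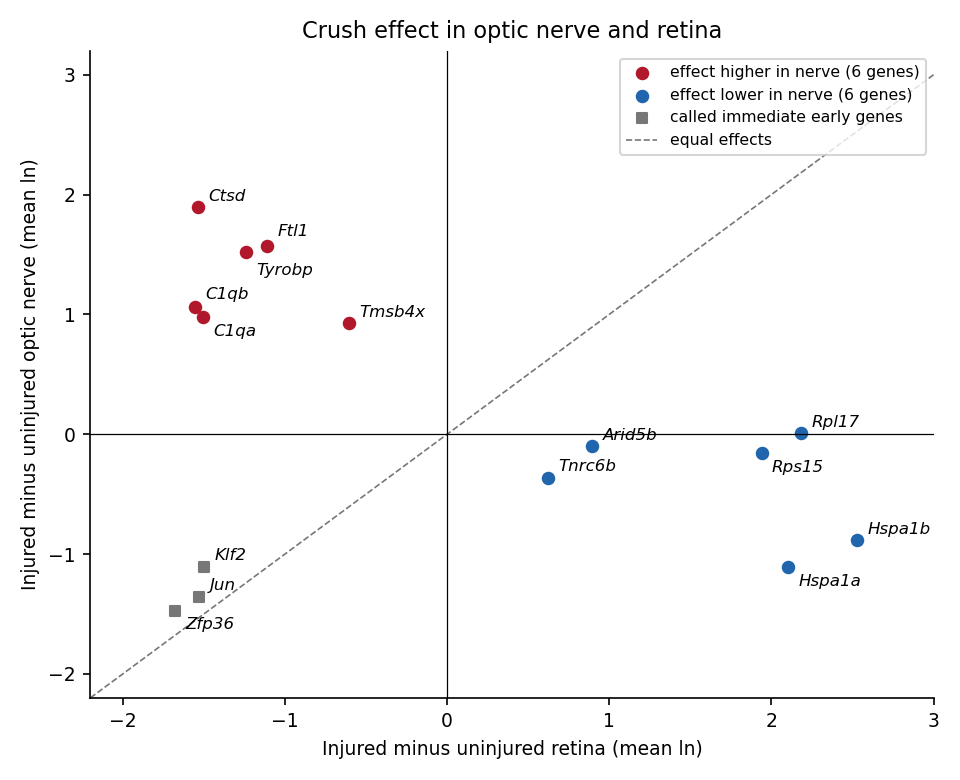
Crush effect in optic nerve (vertical) against that in retina (horizontal), both on the mean ln scale, for the 6 genes in each direction with the smallest adjusted p of the difference and for Jun, Zfp36 and Klf2; the dashed line marks equal effects. Ctsd, C1qa, C1qb, Tyrobp, Ftl1 and Tmsb4x lie above 0 in nerve and below 0 in retina, Hspa1a and Hspa1b lie the opposite way, and the 3 immediate early genes lie below 0 in both.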

How the data were processed

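Single-cell 3' libraries (10x Chromium) of optic nerve and retina were processed with Cell Ranger 1.3 after bcl2fastq 2.17.1.14, with Seurat 4.0.3 and the build mm10 named, per the labels and the submitters' processing notes; cells with 200 to 6500 genes were kept, and 1168 cells were stated and found. The deposited optic nerve values are natural log values, ln(1 + 10000 × UMI count / cell total), and the deposited retina values are raw UMI counts. Optic nerve counts were recovered from the log values: all 1374534 values above 0 (100%) came out whole within 0.01. In the median nerve cell the table held 96.6% of the cell's total. Retina counts were put on the same log scale.

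The mean log value per library was fitted with limma 3.58.1 (trend, group means, 8 libraries), for 3935 genes with a UMI in both tissues and in at least 10% of cells, as a mean over the 4 nerve libraries; p-values were adjusted by Benjamini-Hochberg. Alternatives used edgeR 4.0.16 and DESeq2 1.42.0 on summed counts, other filters, cells thinned to 1000 UMIs, cell classes left out, and each nerve library left out. Cells were clustered with scanpy 1.11.5 and classes named from markers; no doublet caller was run. Exact Clopper-Pearson intervals and limits of a count of 0 (3 counts) cover counting error only. Scripts were tested on simulated data.

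Named genes were the 12 in each direction with the smallest adjusted p that had a mean log2(CPM + 1) of at least 5 and did not overlap in CPM, up to 4 genes of each list with the smallest p, and 6 in each direction for the difference between tissues. The report prints those on which a result turns, and Dcstamp, Cst7, Cd52, Itgax, Gpnmb, Trem2, Lyz2, Hspa1b, P2ry13 and further members called after removal of cell classes were chosen after their values were seen. Members and lists were chosen with earlier results of these data known. Coordinates are from GENCODE M21 (GRCm38, the assembly called mm10), and promoters from RefSeq. Some genes are not reported here.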

Additional observations from a re-analysis of the deposited data

Results flagged for a closer look

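The crush effect differed between optic nerve and retina for 290 genes, by the limma interaction term. The 6 genes with the smallest adjusted p on the side of nerve were Tmsb4x (difference 1.53), C1qa (2.48), Ctsd (3.43), C1qb (2.61), Ftl1 (2.68) and Tyrobp (2.76), each above 0 in nerve and below 0 in retina. On the side of retina they were Hspa1b (−3.42), Hspa1a (−3.22), Rpl17 (−2.17), Rps15 (−2.10), Arid5b (−0.996) and Tnrc6b (−0.98). Whether the injured and uninjured retina libraries were counted with the same gene models is not given in the sources used here, which bears on Rpl17 and Rps15. No retina library was left out in turn. T and NK cell-like cells were found in the injured retina libraries but not in the uninjured ones. Tissue, cell makeup and processing cannot be told apart here.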

How the results depend on the processing

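All 51 called genes kept their direction in every alternative in which they were fitted, but the number called varied, and the cause was not tested. Against 51 genes for the crush effect, limma on the 4 nerve libraries alone called 15 and on log2 CPM 10; edgeR on 4 libraries called 8, no filter on low values 1, a filter on pooled cells 32, thinned cells 5, the remaining myeloid cells 90, and edgeR without non-myeloid cells (chosen after seeing the data) 17. Leaving out 1 library gave 10 to 76. Against 290 genes for the difference between tissues, limma on log2 CPM called 64, edgeR 68, no filter 24, thinned cells 31, limma without non-myeloid cells 153 and edgeR without them 42; leaving out 1 nerve library gave 76 to 188. Without uninjured library 2 the difference in border macrophage-like share was 1.71 percentage points, against −37.4 without uninjured library 4; leaving out 1 library gave differences in median UMIs from −681 to 301.5, with 99.25 without uninjured library 2. Uncalled genes that turned sign were, in the order log2 CPM, edgeR on 8 and on 4 libraries, DESeq2 and edgeR without non-myeloid cells, Rpl17 (−0.58, −0.39, −0.39, −0.43, −0.35), Cd74 (−0.71, −0.59, −0.59, −0.63, −0.99) and, without the last, Tubb5 (−0.21, −0.019, −0.019, −0.068). Rpl17 also turned without non-myeloid cells (−0.019). Leaving out 1 library, Rpl17 ranged from −0.092 to 0.12, Cd74 from −0.079 (without uninjured library 4) to 0.88 and H2-Eb1 from −0.55 to 0.13 (without uninjured library 2). Arid5b turned in edgeR (0.098 on 8 and 0.096 on 4 libraries, 0.047 without non-myeloid cells) and DESeq2 (0.047), Xbp1 without non-myeloid cells (0.041), in the remaining myeloid cells (0.099) and in edgeR without non-myeloid cells (0.51), and Rps29 on log2 CPM (−0.11), in DESeq2 (−0.023) and in edgeR without non-myeloid cells (−0.12). No paired analysis was possible because the replicate numbers of injured (1, 3) and uninjured (2, 4) nerve libraries are not shared. Uninjured library 4, with 28 cells and 84121 UMIs, limits what can be detected.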
